A study of Oryctolagus cuniculus with 30 samples.

Results

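Vocal fold mucosa injected with the hydrogel labelled VFLP (au) was compared with mucosa that was injured and given no injection. The VFLP_au and injury_only groups hold 12 of the 30 RNA sequencing libraries of the series and 6 of its 15 animals, and were picked by their titles. In both groups the superficial mucosa of both vocal folds of New Zealand white rabbits had been stripped. VFLP_au animals received 20 µL of the hydrogel in each fold 7 days after the injury, and injury_only animals received nothing. Tissue of both groups was taken at 28 days after treatment, and for injury_only the labels give no treatment from which these days could run. Each group has 3 animals, with the left and the right fold of each sequenced separately. The series title describes the hydrogels as derived from vocal fold lamina propria, and the labels do not say what "au" stands for. The other groups of the series, used here for reference levels and for 2 direct tests, received the hydrogel labelled VFLP (man) (VFLP_man), type I collagen (Col1), or were uninjured (control). The question was how the transcripts of an injured fold that was given VFLP_au differ from those of an injured fold left alone.

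The vocal fold mucosa is a stratified squamous epithelium over the lamina propria, a soft fibroblast-made matrix of collagens, elastin, proteoglycans and hyaluronan. After injury, fibroblasts exposed to TGF-beta can become myofibroblasts, which make contractile proteins such as smooth muscle actin and lay down fibronectin and fibrillar collagen. A stiff scar of this kind disturbs the vibration of the fold. Muscle, cartilage and mucous glands with a ciliated lining lie next to the mucosa and can be included in a dissection.

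The markers of the labelled tissue were abundant in both groups. KRT13, a keratin of non-keratinizing squamous epithelium, ranged over libraries between 5634 and 15101 CPM in VFLP_au and between 2389 and 12569 CPM in injury_only (CPM being gene counts scaled to a common library total with TMM normalization). DCN, the lamina propria proteoglycan decorin, ranged between 123 and 670 CPM in VFLP_au and between 169 and 574 CPM in injury_only. KRT14 had no row under that name in the counts. The libraries held 19.3 to 28.3 M gene reads in VFLP_au and 19.4 to 23.7 M in injury_only. The library batch moves with the group. All 6 VFLP_au libraries belong to batch D, whereas 5 injury_only libraries belong to batch C and only the right fold of injury_only animal 1 belongs to batch D. Batch and treatment therefore cannot be told apart except through that library, whose value is given below beside the main results. A fit with a batch term in effect sets VFLP_au against that library alone. Every value given below with a batch term therefore rests on 1 fold. Over all 17770 genes tested, that library was closer to VFLP_au than to injury_only in 46.9%, and its partner fold in batch C in 35.2%. Of 67 genes chosen for description whose animals do not overlap, it lay inside the range of the VFLP_au libraries in 16, among them NEK6, TGFBR3, FN1, CTSK, COL15A1, MAL, PKP1, JUP, IGFBP4, PAPPA2, IL33 and IL18. Most of the 67 were picked by small p in this contrast. Among all genes tested it lay inside that range in 62.1%. Where animals do not overlap, it did so in 45.6% of all higher genes and 41.3% of all lower genes. Both folds of an animal were summed before testing, so that n is 3 animals a group.

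No gene passed the adjusted threshold of 0.05 between VFLP_au and injury_only in edgeR's quasi-likelihood test (0 of 17770 genes, 0%). At an unadjusted p under 0.05 there were 2289 genes (12.9%), of which 1280 were higher in VFLP_au (7.2%) and 1009 were lower (5.68%). In 2276 genes all 3 VFLP_au animals lay above all 3 injury_only animals (12.8%), and in 1605 genes they lay below (9.03%). In 172 genes all 6 VFLP_au libraries lay above all 6 injury_only libraries (0.968%), and in 108 genes they lay below (0.608%). DESeq2 called 205 genes on the same counts (1.15%), 104 of them higher in VFLP_au and 101 lower, and limma voom over the 30 libraries called 3 of 16475 (0.0182%), ATF4 and TMEM107, a protein of the ciliary base, higher and SNRNP200 lower. Levels of single genes in these 2 groups below are therefore descriptions with the size of the difference and its error. For these levels, only an adjusted p under 0.05 by DESeq2 or voom marks a passed test.

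IGFBP2, a secreted protein that binds insulin-like growth factors and limits their access to the receptor, headed the genes higher in VFLP_au. It had 233, 211 and 214 CPM in VFLP_au animals, against 59.4, 27.1 and 60.5 CPM in injury_only animals. The groups stood far apart, and this held fold by fold: VFLP_au libraries ranged between 151 and 291 CPM and injury_only libraries between 19.1 and 95.1 CPM. The difference was 4.47-fold (log2 2.16 ± 0.37, SE; adjusted p = 0.354 by edgeR and 3.75e-05 by DESeq2). The injury_only library that shares batch D had 64.8 CPM, inside the range of its own group, and its partner fold in batch C had 53.7 CPM. Uninjured control animals had 214, 156 and 130 CPM, the level nearest to VFLP_au, whereas VFLP_man animals had 81.4, 65.3 and 42.4 CPM and Col1 animals had 66, 84.9 and 149 CPM. The direct difference over VFLP_man was log2 1.80 ± 0.37 (SE; adjusted p = 0.104 by edgeR) and that over Col1 was log2 1.13 ± 0.36 (SE; adjusted p = 0.99 by edgeR), so neither passed.

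ATF4, the transcription factor of the integrated stress response, had 54.4, 51.3 and 40.9 CPM in VFLP_au animals, against 27.7, 27.8 and 32.2 CPM in injury_only animals. All 6 VFLP_au libraries (40.4 to 56.7 CPM) lay above all 6 injury_only libraries (26.9 to 33.7 CPM), the batch D library of injury_only having 27 CPM. The difference was 1.67-fold (log2 0.74 ± 0.14, SE), with an adjusted p of 0.354 by edgeR, 0.00116 by DESeq2 and 0.00582 by limma voom. VFLP_man animals (38.6, 34 and 41.9 CPM) and Col1 animals (40.6, 42 and 48.6 CPM) also all lay above injury_only animals. VFLP_au differed from Col1 by log2 0.16 ± 0.14 and from VFLP_man by log2 0.36 ± 0.14 (SE; adjusted p = 0.99 and 0.51 by edgeR). AK4, a mitochondrial adenylate kinase, had 21.7, 19 and 16.4 CPM in VFLP_au animals, against 6.22, 8.84 and 7.02 CPM in injury_only animals, 2.58-fold higher (log2 1.37 ± 0.28, SE; adjusted p = 0.354 by edgeR). Its animals did not overlap, but the right fold of VFLP_au animal 3 had 8.93 CPM, under the highest injury_only library at 9.49 CPM. EGLN2, a prolyl hydroxylase that acts on hypoxia-inducible factors, had a small and even difference, with 74, 74.1 and 72.6 CPM in VFLP_au animals, against 55.4, 60.3 and 55 CPM in injury_only animals (1.29-fold; log2 0.37 ± 0.08, SE). Its VFLP_man animals (67.9, 66.8 and 75.2 CPM) and Col1 animals (76.3, 70 and 78.5 CPM) also all lay above injury_only animals.

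The other leading higher genes were ZNF236, a zinc finger protein, NCK2, an adaptor of tyrosine kinase signalling, PLCD3, a phospholipase C, SLC34A3, a sodium and phosphate cotransporter, HTR4, a serotonin receptor, and AKTIP, which binds the kinase AKT. HTR4 had 11.1, 14.7 and 10.2 CPM in VFLP_au animals, against 4.52, 7.24 and 6.29 CPM in injury_only animals. PLCD3 had 162, 187 and 196 CPM in VFLP_au animals, against 89.8, 100.2 and 103 CPM in injury_only animals. In ZNF236, NCK2, PLCD3 and SLC34A3 the VFLP_man and Col1 animals also all lay above injury_only animals. Over all 10 genes the fold ran between 1.29 and 4.47, and the batch D library of injury_only lay outside the VFLP_au libraries in 10 of 10. The 10 genes were ranked by their p in this contrast, so their separation follows from the choice.

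**Figure D1:**
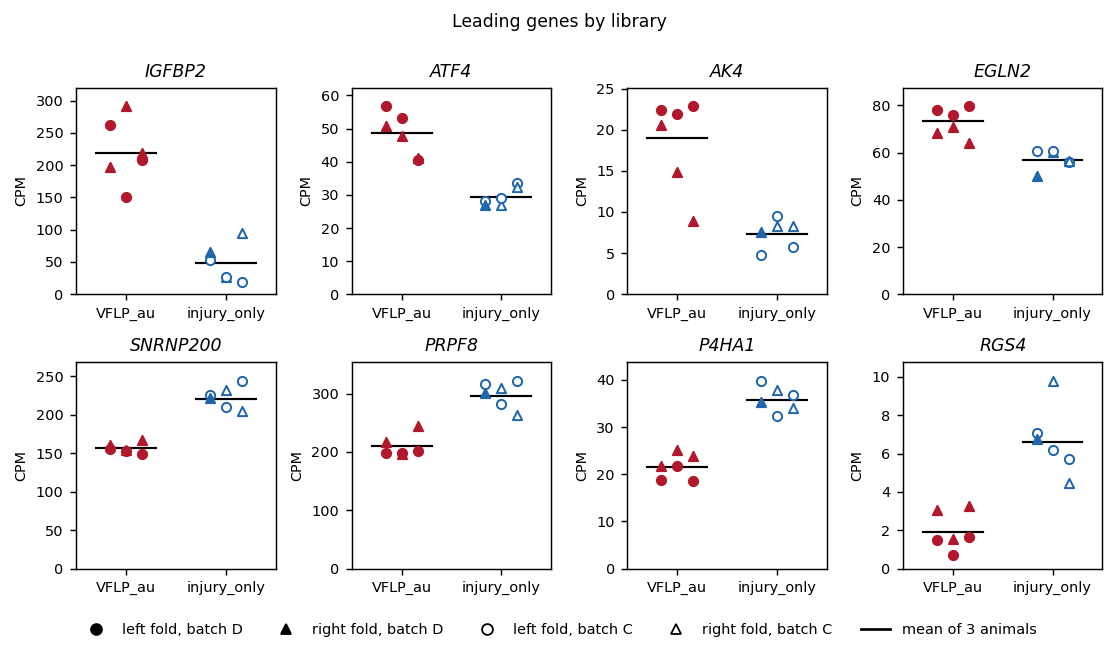
Level in CPM of 8 leading genes in each library of VFLP_au and injury_only, with left folds as circles and right folds as triangles, batch D filled and batch C open, the 3 animals of a group side by side, and a bar for the mean of 3 animals. The filled triangle in the injury_only column is the only injury_only library of batch D; in IGFBP2 it stands at 64.8 CPM, whereas VFLP_au libraries start at 151 CPM.

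Among the genes lower in VFLP_au, SNRNP200 and PRPF8 stood out for their narrow spread. Both encode core proteins of the U5 small nuclear ribonucleoprotein at the heart of the spliceosome. SNRNP200 had 159, 154 and 158 CPM in VFLP_au animals, against 224, 219 and 217 CPM in injury_only animals. Its libraries ranged between 149 and 167 CPM in VFLP_au and between 204 and 244 CPM in injury_only, with 221 CPM in the batch D library of injury_only. The difference was 1.4-fold (log2 -0.49 ± 0.09, SE), with an adjusted p of 0.354 by edgeR, 2.38e-05 by DESeq2 and 0.0213 by limma voom. PRPF8 had 209, 198 and 223 CPM in VFLP_au animals, against 310, 294 and 282 CPM in injury_only animals, also 1.4-fold lower. For both genes the difference of VFLP_au from VFLP_man and from Col1 was small, at most log2 -0.14 ± 0.09 (SE), for SNRNP200 over VFLP_man.

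P4HA1, the catalytic subunit of the prolyl hydroxylase that lets collagen chains fold into a stable triple helix, had 20.4, 23.3 and 21.1 CPM in VFLP_au animals, against 37.7, 34.9 and 34.5 CPM in injury_only animals. The 6 libraries of either group did not overlap (18.5 to 25.2 CPM in VFLP_au, 32.3 to 39.9 CPM in injury_only), and the batch D library of injury_only had 35.4 CPM. The difference was 1.65-fold (log2 -0.72 ± 0.15, SE; adjusted p = 0.354 by edgeR and 0.00525 by DESeq2). VFLP_man animals (17.6, 27 and 22.3 CPM) and Col1 animals (26.9, 23.4 and 23.9 CPM) of P4HA1 also all lay below injury_only animals. RGS4, which shortens signalling through G protein coupled receptors, had 2.26, 1.08 and 2.42 CPM in VFLP_au animals, against 6.94, 7.92 and 4.91 CPM in injury_only animals (3.44-fold lower; log2 -1.78 ± 0.38, SE). Col1 animals (1.27, 2.81 and 1.6 CPM) of RGS4 also all lay below injury_only animals, whereas VFLP_man animals overlapped them. APP, the amyloid precursor protein, had 240, 208 and 352 CPM in VFLP_au animals, against 550.4, 509.7 and 601 CPM in injury_only animals (2.08-fold lower; log2 -1.05 ± 0.22, SE).

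The remaining leading lower genes were NEK6, a mitotic kinase, CYP2J1, a rabbit cytochrome P450, NBAS, which takes part in transport between Golgi and endoplasmic reticulum, LIMD1, a LIM domain scaffold protein, and PRDX6, a peroxiredoxin. PRDX6 had 222, 195 and 262 CPM in VFLP_au animals, against 474, 298 and 355 CPM in injury_only animals. In NBAS and LIMD1 the VFLP_man and Col1 animals also all lay below injury_only animals. In CYP2J1 this held for Col1 animals alone, and in NEK6 for VFLP_man animals alone. NEK6 is the exception among the 20 leading genes in its batch D value: that injury_only library had 18.5 CPM, inside the range of the VFLP_au libraries. CYP2J1 belongs to a family of similar genes whose reads counting could divide between copies. All 20 leading genes passed in DESeq2 (adjusted p between 2.38e-05 and 0.0141) and none passed in edgeR. They were ranked by their p in edgeR on the same counts, so the DESeq2 calls are not independent of the choice. All 20 kept their sign with a batch term. The batch D library on which that fit rests is also part of the injury_only animal 1 value used in the choice.

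Most other genes of the insulin-like growth factor axis lay on the other side from IGFBP2. Of 18 genes tested in this list, 1 was higher and 6 were lower in VFLP_au at an unadjusted p under 0.05, and 14 of 18 had a negative fold change, with a median log2 fold change of -0.36 against 0.01 over all genes tested. Over all genes, 7.2% were higher and 5.68% lower at that threshold. The growth factor IGF2 had 5.92, 4.64 and 6.03 CPM in VFLP_au animals, against 5.99, 16.9 and 17.6 CPM in injury_only animals. Its low injury_only animal is animal 1, whose 2 folds had 5.73 CPM in batch D and 6.23 CPM in batch C, and with a batch term its log2 fold change was -0.05 in place of -1.29. IGFBP4, another binding protein, had 52.6, 36.1 and 35.5 CPM in VFLP_au animals, against 66.6, 94 and 58.5 CPM in injury_only animals (1.76-fold lower; adjusted p = 0.362 by edgeR). The batch D library of injury_only had 51.2 CPM of IGFBP4, inside the range of the VFLP_au libraries, and with a batch term the log2 fold change was -0.30 in place of -0.82. PAPPA2, a protease that cleaves IGF binding proteins, stood at 1.34, 0.464 and 0.879 CPM in VFLP_au animals, against 1.55, 2.64 and 1.53 CPM in injury_only animals. For IGFBP4 and PAPPA2, VFLP_man and Col1 animals also all lay below injury_only animals. IGFBP5, a binding protein held in the matrix, had 2592, 3287 and 2622 CPM in VFLP_au animals, against 2164, 2301 and 1833 CPM in injury_only animals, without overlap but with an adjusted p of 0.58 by edgeR.

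The list of genes known to work with ATF4 was centred near 0, unlike ATF4 itself. Of 28 ATF4 and amino acid stress genes tested, 3 were higher and none lower in VFLP_au at an unadjusted p under 0.05 by edgeR (7.2% and 5.68% of all genes). None passed after adjustment by edgeR and 1, ATF4 itself, by DESeq2. The median log2 fold change was 0.01, with 14 genes on either side of 0. ASNS, which makes asparagine and is a standard ATF4 target, had 38, 50.1 and 36.6 CPM in VFLP_au animals, against 44.9, 32.6 and 43.2 CPM in injury_only animals. TRIB3, a target that restrains ATF4, had 0.523, 0.835 and 0.488 CPM in VFLP_au animals, against 0.892, 0.778 and 2.93 CPM in injury_only animals. WARS1, the tryptophan tRNA synthetase, was high in VFLP_au animal 2 alone, with 242, 658 and 226 CPM in VFLP_au animals, against 185, 215 and 272 CPM in injury_only animals. AARS1, the alanine tRNA synthetase, had 73.1, 70.6 and 73.6 CPM in VFLP_au animals, below all injury_only animals with 96, 74.6 and 122 CPM. Of 16 genes of the unfolded protein response, 3 were lower in VFLP_au and none higher at an unadjusted p under 0.05 (5.68% and 7.2% of all genes), among them the chaperone HSP90B1 with 572, 703 and 610.5 CPM in VFLP_au animals, against 1121, 754 and 776 CPM in injury_only animals.

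Of the contractile genes of smooth muscle and myofibroblasts, the 4 with the smallest p were lower in VFLP_au, without passing the adjusted threshold. They were chosen by that p. ACTA2, smooth muscle actin and the usual marker of myofibroblasts, had 30.7, 23.7 and 42.1 CPM in VFLP_au animals, against 101, 106 and 136 CPM in injury_only animals (3.55-fold lower; log2 -1.83 ± 0.58, SE; adjusted p = 0.354 by edgeR). MYH11, smooth muscle myosin, had 19.1, 17 and 30.1 CPM in VFLP_au animals, against 78.2, 83.2 and 103 CPM in injury_only animals (4-fold lower; log2 -2 ± 0.62, SE). TAGLN, the actin-binding transgelin, had 4.79, 4.73 and 8.81 CPM in VFLP_au animals, against 16.7, 14.3 and 23.1 CPM in injury_only animals. MYL9, a myosin light chain, had 28.8, 21.7 and 23.2 CPM in VFLP_au animals, against 40.4, 49.7 and 57.5 CPM in injury_only animals. In none of the 4 genes did the animals overlap. In bulk mucosa, fewer contractile cells and less of these transcripts per cell cannot be told apart.

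Of the 18 contractile genes tested, 7 were lower and none higher in VFLP_au at an unadjusted p under 0.05 by edgeR, 6 had animals that did not overlap, all lower, and the median log2 fold change was -0.62. Over all genes tested, 5.68% were lower at that threshold and 9.03% lay lower without overlap. None of the 18 passed in edgeR or in DESeq2 after adjustment. The members shared with skeletal muscle overlapped between groups: DES, desmin, had 580, 294 and 438 CPM in VFLP_au animals, against 320, 657 and 749 CPM in injury_only animals. Library by library ACTA2, MYH11, MYL9 and TAGLN were less even than by animal, and each overlapped between groups. For ACTA2, VFLP_au libraries ranged between 14.5 and 68 CPM and injury_only libraries between 20.5 and 291 CPM, the lowest being the right fold of injury_only animal 3. The batch D library of injury_only had 103 CPM of ACTA2, 84.2 CPM of MYH11, 38.5 CPM of MYL9 and 18.4 CPM of TAGLN, each above all VFLP_au animals. The list median was log2 -1.72 over left folds alone and 0.09 over right folds alone, and 0.22 with a batch term, while ACTA2 with a batch term remained at -1.68, MYH11 at -1.93, TAGLN at -1.59 and MYL9 at -0.64.

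On average ACTA2 was lower in VFLP_man and higher in Col1 than in VFLP_au, with VFLP_man animal 3 inside the range of VFLP_au animals. VFLP_man animals had 10.9, 14.5 and 37.9 CPM of ACTA2, and Col1 animals 83.9, 271 and 48.3 CPM. The difference of VFLP_au from Col1 was log2 -2.06 ± 0.58 for ACTA2 (SE; adjusted p = 0.99 by edgeR), and that from VFLP_man was log2 0.61 ± 0.57 (SE; adjusted p = 0.81 by edgeR), so neither passed. Over Col1, 7 of the 18 contractile genes were lower and none higher at an unadjusted p under 0.05 by edgeR (2.73% and 1.98% of all genes), with a median of log2 -0.33. Over VFLP_man, 7 were higher and none lower (5.86% of all genes were higher), with a median of log2 0.81. None passed after adjustment.

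**Figure D2:**
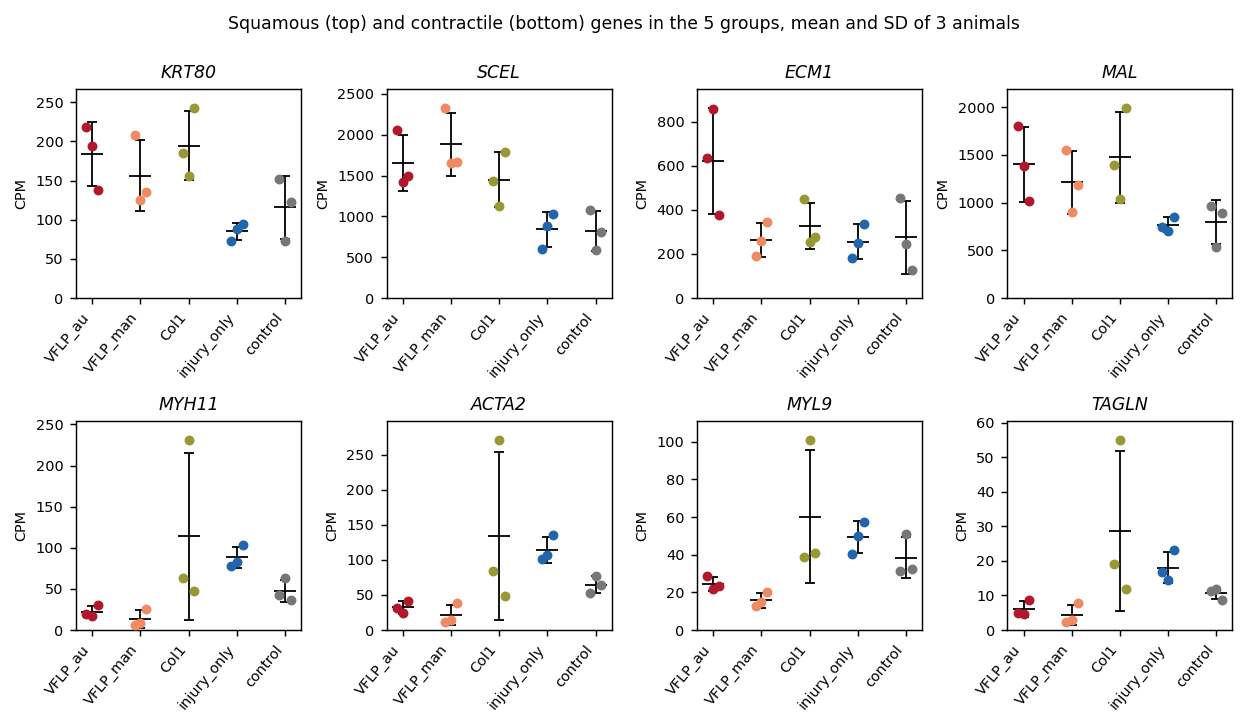
Level in CPM of 4 squamous epithelial genes (top row) and 4 contractile genes (bottom row) in the 3 animals of each of the 5 groups, with the mean and SD. In MYH11, ACTA2, MYL9 and TAGLN the VFLP_au animals lie below all injury_only animals; in KRT80, SCEL, ECM1 and MAL they lie above all of them.

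Genes of scar and matrix differed by varying amounts, and most preset scar genes overlapped between the groups. FN1, fibronectin, had 153, 94.2 and 113 CPM in VFLP_au animals, against 237, 289 and 158 CPM in injury_only animals (1.9-fold lower; log2 -0.92 ± 0.35, SE; adjusted p = 0.362 by edgeR). Its batch D value in injury_only, 186 CPM, lay inside the range of the VFLP_au libraries. VFLP_man and Col1 animals also all lay below injury_only animals in FN1. COL1A1, a chain of type I collagen, had 130, 58.3 and 40.2 CPM in VFLP_au animals, against 109, 164 and 108 CPM in injury_only animals, and COL3A1, type III collagen, had 370, 216 and 136 CPM in VFLP_au animals, against 303, 361 and 202 CPM in injury_only animals. In both collagens VFLP_au animal 1 was as high as injury_only animals, and its right fold carried that level, with 202 CPM of COL1A1. The log2 fold changes were -0.73 ± 0.50 for COL1A1 and -0.26 ± 0.42 for COL3A1 (SE); that of COL3A1 was 0.0049 without VFLP_au animal 3 and 0.13 over right folds alone. Of 18 fibrillar collagens and processing genes tested, 1, P4HA1, was lower at an unadjusted p under 0.05 by edgeR and none was higher (5.68% and 7.2% of all genes).

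Of the other preset genes, ELN, elastin, had 105, 70.4 and 43.8 CPM in VFLP_au animals, against 78, 61.7 and 62 CPM in injury_only animals. TGFB1 had 11.8, 7.57 and 9.13 CPM in VFLP_au animals, against 7.35, 12.3 and 8.21 CPM in injury_only animals. For both genes and for HAS2, a hyaluronan synthase, the sign of the difference depended on which animal or fold was left out. LOX, which crosslinks collagen and elastin, POSTN, the matricellular protein periostin, and MMP1, an interstitial collagenase, also overlapped, with adjusted p of 0.907, 0.655 and 0.518 by edgeR. PLAU, the urokinase that activates plasminogen, had 36, 43.6 and 35.5 CPM in VFLP_au animals, against 20.3, 21.4 and 25.6 CPM in injury_only animals (1.71-fold higher; adjusted p = 0.354 by edgeR). VFLP_man and Col1 animals also all lay above injury_only animals in PLAU.

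In the TGF-beta pathway, of 20 ligands, receptors and SMADs tested, 2 were higher and 1 lower in VFLP_au at an unadjusted p under 0.05 by edgeR, with a median log2 fold change of -0.07. The shares over all genes were 7.2% higher and 5.68% lower. SMAD2, a signal transducer of the pathway, had 89.5, 97.5 and 92.1 CPM in VFLP_au animals, against 66.5, 75.8 and 80 CPM in injury_only animals. SKIL, a nuclear repressor of SMADs, had 31.3, 30.1 and 27.8 CPM in VFLP_au animals, against 18.9, 20.4 and 25.3 CPM in injury_only animals. TGFBR3, the co-receptor betaglycan, had 68.8, 55.9 and 60.3 CPM in VFLP_au animals, against 71.5, 87.9 and 100.4 CPM in injury_only animals. The batch D library of injury_only had 69.5 CPM of TGFBR3, and with a batch term its log2 fold change was -0.17 in place of -0.49. Of 14 TGF-beta induced scar genes, 13 had a negative fold change and 2 were lower at an unadjusted p under 0.05 (5.68% of all genes). Their median was log2 -0.45. It stood at -0.75 without VFLP_au animal 1, -0.74 over left folds alone, -0.22 over right folds alone and -0.36 with a batch term.

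Some matrix genes outside the preset group were more even. FBLN7, a fibulin of the extracellular matrix, had 2.88, 1.39 and 4.12 CPM in VFLP_au animals, against 11.8, 8.54 and 8.19 CPM in injury_only animals (3.39-fold lower; log2 -1.76 ± 0.48, SE; adjusted p = 0.354 by edgeR and 0.0299 by DESeq2). COL4A1 and COL4A2, the paired chains of basement membrane collagen, likewise had no overlap between the 6 libraries of either group. COL4A1 had 43.6, 27.1 and 27.6 CPM in VFLP_au animals, against 67.7, 79.8 and 60.2 CPM in injury_only animals, and the batch D library of injury_only had 64.8 CPM. COL4A2 had 23.2, 18.7 and 14.4 CPM in VFLP_au animals, against 35.9, 39 and 30.0 CPM in injury_only animals. The 2 collagen IV genes were 2.11-fold and 1.86-fold lower (adjusted p = 0.354 for either, by edgeR), and their whole list of 20 basement membrane and hemidesmosome genes had a median of log2 -0.02. VCAN, the large proteoglycan versican, had 17.5, 12.6 and 15.6 CPM in VFLP_au animals, against 29.4, 35 and 23.6 CPM in injury_only animals. CTSK, the collagen-degrading cathepsin K, had 34.9, 38 and 37.2 CPM in VFLP_au animals, against 54.1, 68.4 and 43.9 CPM in injury_only animals, its libraries overlapping. For COL4A1, COL4A2, VCAN and CTSK, VFLP_man and Col1 animals also all lay below injury_only animals. For FBLN7 this held in Col1 animals (1.4, 2.12 and 2.39 CPM), whereas VFLP_man animals overlapped injury_only animals. MMP13, a collagenase, was scarce throughout, with 0.293, 0.278 and 0.0732 CPM in VFLP_au animals, against 2, 0.707 and 0.845 CPM in injury_only animals.

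**Figure D3:**
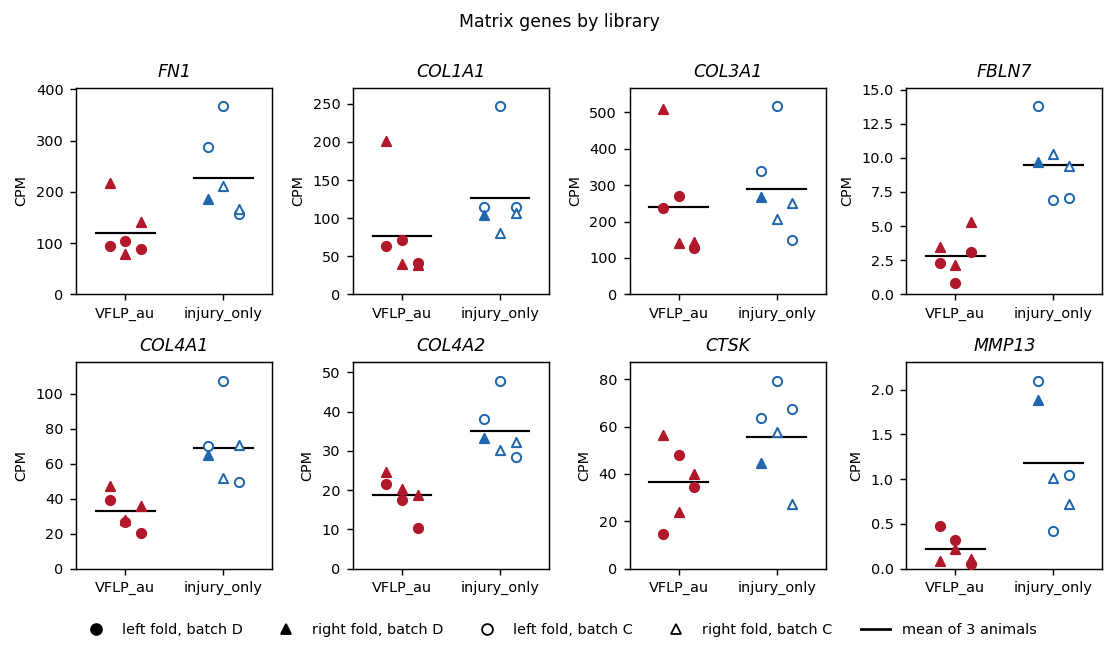
Level in CPM of 8 matrix genes in each library of VFLP_au and injury_only, with left folds as circles and right folds as triangles, batch D filled and batch C open, and a bar for the mean of 3 animals. FBLN7, COL4A1 and COL4A2 have no overlap between the 6 libraries of either group, whereas FN1, COL1A1, COL3A1, CTSK and MMP13 overlap.

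Differentiated squamous genes were higher in VFLP_au across most of their list. Of 20 such genes tested, 10 were higher and none lower at an unadjusted p under 0.05 by edgeR, and in 13 the 3 VFLP_au animals lay above all injury_only animals. Over all genes tested those shares were 7.2% and 12.8%. The median log2 fold change was 0.93, against 0.01 over all genes, and 19 of 20 were positive. None passed after adjustment in edgeR, and 2, KRT80 and SCEL, passed in DESeq2. KRT80, a keratin of differentiating epithelium, had 219, 194 and 139 CPM in VFLP_au animals, against 72.4, 88.8 and 94.1 CPM in injury_only animals (2.16-fold higher; log2 1.11 ± 0.29, SE; adjusted p = 0.354 by edgeR and 0.0324 by DESeq2). SCEL, the cornified envelope protein sciellin, had 2055, 1426 and 1496 CPM in VFLP_au animals, against 603, 886 and 1032 CPM in injury_only animals. TGM1, the transglutaminase that crosslinks the envelope, had 166, 176 and 80.9 CPM in VFLP_au animals, against 52, 73.8 and 53.5 CPM in injury_only animals. SPRR3, a small proline-rich envelope protein, had 1270, 1853 and 854 CPM in VFLP_au animals, against 503, 447 and 218 CPM in injury_only animals.

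ECM1, which epithelia and matrix share, had 633, 856 and 377 CPM in VFLP_au animals, against 183, 247 and 338 CPM in injury_only animals. MAL, a membrane protein of apical sorting, had 1801, 1382 and 1016 CPM in VFLP_au animals, against 743, 702 and 853 CPM in injury_only animals. VFLP_au animal 3 was the lowest of its group in KRT80, ECM1 and MAL. KLF4, a transcription factor of squamous differentiation, had 368, 286 and 281 CPM in VFLP_au animals, against 124, 190.5 and 176 CPM in injury_only animals (1.91-fold higher; adjusted p = 0.354 by edgeR and 0.0455 by DESeq2). VFLP_man and Col1 animals also all lay above injury_only animals in KLF4, and VFLP_au differed from Col1 by log2 0.08 ± 0.25 (SE). KLF4 was taken from the list of immediate early genes and not from the squamous list. Of 15 immediate early genes tested, 2 were higher and none lower at an unadjusted p under 0.05 by edgeR (7.2% and 5.68% of all genes), with a median of log2 0.09. The batch D library of injury_only had 155 CPM of KLF4 and 92.2 CPM of KRT80, both under all VFLP_au libraries, but its 895 CPM of MAL lay inside the VFLP_au range. The squamous list median was log2 0.86 with a batch term, 1.57 over left folds alone and 0.42 over right folds alone.

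Basal epithelium, with 13 genes tested, had its median at log2 0.45. Of these genes, 3 were higher and none lower at an unadjusted p under 0.05, beside 7.2% of all genes that were higher. JAG2, a Notch ligand, had 57.2, 60.2 and 51.4 CPM in VFLP_au animals, against 41.5, 44.6 and 37.5 CPM in injury_only animals, and its 6 libraries of either group did not overlap. TRIM29, a basal cell marker, had 458, 437 and 407 CPM in VFLP_au animals, against 239, 287 and 283 CPM in injury_only animals. Of 18 junction genes, 2 were higher at an unadjusted p under 0.05 by edgeR, both of the desmosome, a count near the share over all genes. PKP1, plakophilin, had 672, 687 and 489.5 CPM in VFLP_au animals, against 286, 366 and 379 CPM in injury_only animals, and JUP, plakoglobin, had 713, 705 and 522 CPM in VFLP_au animals, against 423, 415 and 406 CPM in injury_only animals. The batch D library of injury_only had 525 CPM of JUP and 361 CPM of PKP1, both inside the range of the VFLP_au libraries, and with a batch term the log2 fold change of JUP was 0.30 in place of 0.64. PKP1 and JUP were also higher in all VFLP_man and Col1 animals than in all injury_only animals.

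Set directly against the other injected groups, no squamous gene passed after adjustment by edgeR. Over Col1 the squamous list had 0 of 20 genes at an unadjusted p under 0.05 and a median of log2 0.09, and over VFLP_man it had 2, both higher (5.86% of all genes were higher at that threshold), and a median of log2 0.13. ECM1 had a direct difference of log2 1.24 ± 0.45 over VFLP_man (SE; adjusted p = 0.434 by edgeR).

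Glandular and ciliated transcripts were on the whole lower in VFLP_au animals, with a large spread among folds. Of 17 secretory genes tested, 2 were higher and 1 was lower at an unadjusted p under 0.05 by edgeR, and the median log2 fold change was -1.34. The shares over all genes were 7.2% higher and 5.68% lower. The 17 secretory genes tested made up 1.1%, 0.841% and 4.46% of gene reads in VFLP_au animals, against 6.61%, 4.62% and 9.1% in injury_only animals. Fold by fold the shares ranged between 0.759% and 7.76% in VFLP_au and between 0.613% and 19% in injury_only, so that the libraries overlapped widely, and the batch D library of injury_only had 5.96%. The share rests on few genes: BPIFA1, an airway antimicrobial protein, had 961, 88.8 and 14418 CPM in VFLP_au animals, against 16486, 22314 and 42648 CPM in injury_only animals, with an adjusted p of 0.574 by edgeR. PIGR, which carries antibodies across glandular epithelium, had 822, 244 and 2423 CPM in VFLP_au animals, against 5999, 2697 and 5001 CPM in injury_only animals. WFDC2, a secreted antiprotease, had 184, 154 and 247 CPM in VFLP_au animals, against 623, 434 and 419 CPM in injury_only animals (2.53-fold lower; adjusted p = 0.355 by edgeR).

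Members of the same list that squamous surface cells also carry lay on the other side. MUC1, a membrane mucin, had 4177, 3790 and 3234 CPM in VFLP_au animals, against 1545, 2026 and 2223 CPM in injury_only animals. AQP5, a water channel, had 1574, 1850 and 1392 CPM in VFLP_au animals, against 789, 1254 and 965 CPM in injury_only animals.

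All 20 ciliated genes tested had a negative fold change, with a median of log2 -1.87. At an unadjusted p under 0.05, 2 were lower (5.68% of all genes), and none passed after adjustment in edgeR or DESeq2. MCIDAS, a regulator of multiciliated cell fate, had 0.92, 0.111 and 0.83 CPM in VFLP_au animals, against 4.73, 1.13 and 1.39 CPM in injury_only animals. RFX3, a transcription factor of ciliogenesis, had 18.2, 16.8 and 28 CPM in VFLP_au animals, against 64.3, 38.7 and 32.6 CPM in injury_only animals (2.15-fold lower; adjusted p = 0.354 by edgeR). VFLP_au animal 2 was nearly without ciliary transcripts, with 0.0928 CPM of FOXJ1, the master regulator of motile cilia, beside 16.1 and 28 CPM in VFLP_au animals 1 and 3, against 84.1, 37.1 and 17.4 CPM in injury_only animals. Summed over the list, the ciliated share of gene reads ranged over libraries between 0.0022% and 0.0711% in VFLP_au and between 0.00413% and 0.208% in injury_only.

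**Figure D4:**
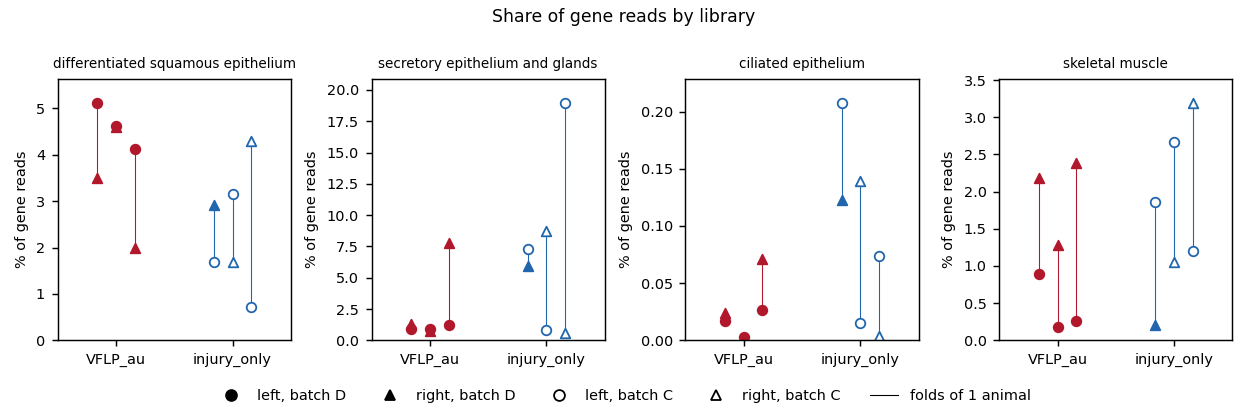
Share of gene reads, in percent, taken by differentiated squamous, secretory, ciliated and skeletal muscle genes in each library of VFLP_au and injury_only, with left folds as circles, right folds as triangles, batch D filled, batch C open and a line joining the folds of an animal. The squamous shares of VFLP_au animals (4.36%, 4.61% and 3.06%) exceed those of injury_only animals (2.31%, 2.44% and 2.65%), while single libraries of all 4 lists overlap.

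Skeletal muscle differed by side. In left folds its 26 genes took 0.887%, 0.177% and 0.262% of gene reads in VFLP_au animals, against 1.86%, 2.66% and 1.2% in injury_only animals. In right folds they took 2.18%, 1.28% and 2.38% in VFLP_au animals, against 0.201%, 1.05% and 3.19% in injury_only animals, the lowest being the batch D library. The groups do not overlap on the left and overlap on the right. The list's median log2 fold change was -0.61 over both folds, -2.20 over left folds, 0.38 over right folds and 2.50 with a batch term. The last value sets VFLP_au against the batch D library alone, the injury_only library with the least muscle. Other lists had the same order of sides: endothelium had a median of -0.79 over both folds, -1.17 over left folds and -0.44 over right folds, and Schwann cell and nerve genes had -0.72, -1.76 and 0.25. The part of muscle content in the results above was not tested.

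Of 18 fibroblast identity genes, 2 were lower and none higher in VFLP_au at an unadjusted p under 0.05 by edgeR (5.68% and 7.2% of all genes). Their median was log2 -0.39, and 0.19 with a batch term. COL15A1, a collagen of the outer fibroblast and vessel sheath, had 17, 8.18 and 12.6 CPM in VFLP_au animals, against 24.2, 32.4 and 20.4 CPM in injury_only animals. VFLP_man and Col1 animals also all lay below injury_only animals in COL15A1. PI16, a marker of adventitial fibroblasts, was high in injury_only animal 2, with 28.7, 12.1 and 39 CPM in VFLP_au animals, against 41.8, 119 and 34.6 CPM in injury_only animals. Of 20 endothelial genes, all had a negative fold change and 3 were lower at an unadjusted p under 0.05 (5.68% of all genes), with a median of log2 -0.79, and of -0.10 with a batch term. Among the 3 was VWF, von Willebrand factor, with 69.7, 27.1 and 39.7 CPM in VFLP_au animals, against 100.3, 209 and 106 CPM in injury_only animals.

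Immune genes showed few differences. Of 16 macrophage genes 1 was lower and none higher at an unadjusted p under 0.05 by edgeR, of 11 T and NK cell genes none was on either side, and of 14 B and plasma cell genes 2 were lower with a median of log2 -1.14, which was -0.09 with a batch term. The shares over all genes were 5.68% lower and 7.2% higher. CTSS, the cathepsin that prepares class II molecules for antigen loading, had 25.7, 14.2 and 38.7 CPM in VFLP_au animals, against 57, 46.6 and 55 CPM in injury_only animals. IL33, an alarmin, had 19.6, 6.29 and 9.22 CPM in VFLP_au animals, against 20.4, 34 and 24.4 CPM in injury_only animals. The batch D library of injury_only had 14.6 CPM of IL33, inside the range of the VFLP_au libraries, and with a batch term its log2 fold change was -0.32 in place of -1.17. IL18, another cytokine of epithelia, had 236, 270.3 and 246 CPM in VFLP_au animals, against 196, 168 and 209 CPM in injury_only animals. All VFLP_man and Col1 animals likewise lay below injury_only animals in IL33 and above them in IL18. Of 18 cytokines and chemokines none was past an unadjusted p of 0.05 by edgeR.

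Interferon response genes had a median of log2 0.72 over injury_only, and of 0.02 with a batch term. Of 15 genes, 1 was higher at an unadjusted p under 0.05 (7.2% of all genes). IFIT3, an interferon-induced antiviral protein, had 41.9, 116 and 112 CPM in VFLP_au animals, against 87.4, 23.2 and 31.6 CPM in injury_only animals, with animal 1 out of step in both groups. Over Col1, which shares batch D, 12 of the 15 were higher at an unadjusted p under 0.05 and none passed after adjustment by edgeR, with a median of log2 1.29; over all genes 1.98% were higher and 2.73% lower at that threshold. HERC5, an interferon-induced ligase, differed by log2 2 ± 0.53 over Col1 (SE; adjusted p = 0.99 by edgeR).

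Cell cycle genes were carried by 1 animal. AURKB, CCNA2 and CCNB1, a mitotic kinase and 2 cyclins, had 21.4, 33.1 and 70.4 CPM in VFLP_au animal 2, but at most 5.52, 10.9 and 22.8 CPM in the other VFLP_au animals, against at most 7.89, 12.7 and 28.5 CPM in injury_only animals. Without VFLP_au animal 2 all 3 had a small negative fold change. Of 21 nuclear genes of the mitochondrial respiratory chain none was past an unadjusted p of 0.05 by edgeR, with a median of log2 -0.04. NDUFS7 and NDUFS8, complex I subunits, had log2 fold changes of 0.23 ± 0.23 and 0.20 ± 0.23 (SE).

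**Figure D5:**
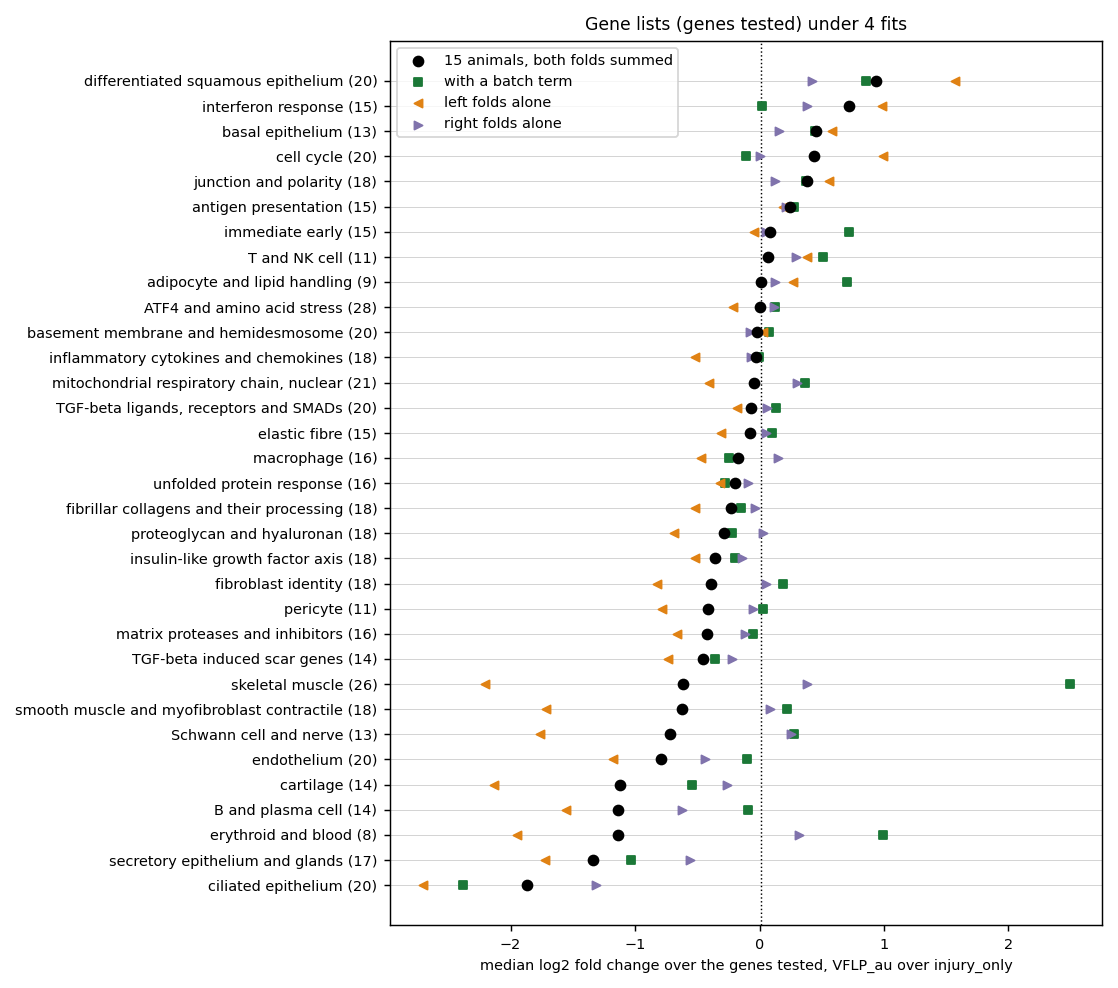
Median log2 fold change of VFLP_au over injury_only for 33 gene lists (number of genes tested in brackets), in the fit of 15 animals, with a batch term, and over left or right folds alone; the dotted line is the median of all genes tested, 0.01. Squamous and basal epithelium stay above 0 and ciliated and secretory epithelium below 0 in all 4 fits, whereas skeletal muscle runs between -2.20 and 2.50. Several other lists also keep their sign, among them junction and interferon response above 0, and endothelium and the insulin-like growth factor axis below 0. The 4 fits share libraries.

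Set directly against the other injected groups, which lie in the same batch, VFLP_au had no gene past the adjusted threshold over Col1 in edgeR (838 of 17770 at an unadjusted p under 0.05, 4.72%; 36 by DESeq2, 0.203%). Over VFLP_man 7 genes passed (0.0394%; 1484 at an unadjusted p under 0.05, 8.35%; 357 by DESeq2, 2.01%), all higher in VFLP_au. AK4 was among them and the only one also among the 20 genes leading over injury_only, 4.74-fold higher (log2 2.25 ± 0.28, SE; adjusted p = 0.0329 by edgeR), with 4.51, 3.51 and 4 CPM in VFLP_man animals beside the VFLP_au values given above. Others, named because they passed, were RELT, a receptor of the tumour necrosis factor family, PPM1J, a protein phosphatase, FABP3, the fatty acid binding protein of muscle, PFKFB1, a regulator of glycolysis in liver and muscle, and LOC100343225. Beside them, 22 of 26 skeletal muscle genes were higher over VFLP_man at an unadjusted p under 0.05, with a median of log2 2.41 (5.86% of all genes were higher at that threshold). The 7 calls became 0 to 86 when 1 animal was left out, with 86 without VFLP_man animal 2, 21 without VFLP_au animal 2, and 0 or 1 without any of the others.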

How the data were processed

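For each library the authors deposited unnormalized gene counts from STAR 2.7.10b, per the submitters' processing notes. The build of the genome is not given in the sources used, and per the labels' protocols the library kit was KAPA mRNA HyperPrep. Second-strand counts were used, and both folds of an animal were summed. Entries that name no gene, 24.5% to 37.8% of a library, were left out. Of 31346 gene rows, 16731 carry a symbol, of which 15808 were found in RefSeq names. Left and right folds of an animal correlated at r between 0.957 and 0.979 in VFLP_au and between 0.904 and 0.973 in injury_only (log2 CPM, across genes). Their counts differed by more than sampling noise (chi-square over its degrees of freedom at least 78.2). The folds were summed for the main test and kept apart in voom and where single libraries are described. Animals are separate per the labels.

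Tests used R 4.3.3 and edgeR 4.0.16 (quasi-likelihood F test, TMM, filterByExpr at a minimum count of 10) on all 15 animals with group as the only term, two-sided, with Benjamini-Hochberg adjustment over 17770 genes and a threshold of 0.05. Standard errors are approximate, the size of the log2 fold change divided by the root of F. The scripts were tested on simulated data. The results were recomputed with DESeq2 1.42.0, with DESeq2's size factors inside edgeR, limma 3.58.1 voom with duplicateCorrelation, no filter on low counts, a batch term over 16 units, injury_only animal 1 by its batch C fold alone, left or right folds alone, a block for the replicate number, unstranded counts, the 2 groups alone, and each animal left out.

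The members and the 33 gene lists (539 of 637 genes tested) were chosen with earlier results of these data known. Named genes are the 10 a direction with the smallest p among genes with a symbol, at least 1 CPM on average and animals that do not overlap, then up to 3 or 4 members of each list by smallest p, and 10 preset scar genes, 98 in all. Further list members (DES, IGFBP5, ASNS, TRIB3, SPRR3, TGM1, BPIFA1, PIGR, FOXJ1, VWF and IFIT3) are shown for their role and were chosen after their values were seen. Lists got no test. Some genes that the rule names are not reported here.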

Additional observations from a re-analysis of the deposited data

Results flagged for a closer look

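Among the 6 libraries of a group, 4 summed shares of gene reads had 1 library that stood apart from the rest by Dixon's criterion at 95%, which chance alone meets in about 1 of 20 groups. Shares of 33 lists in either group were looked at, so several such libraries would be met by chance alone. The right fold of VFLP_au animal 3 held 7.76% secretory genes, beside 0.759% to 1.34% in the other 5 VFLP_au libraries, and the same library held 0.0711% ciliated genes, beside 0.0022% to 0.0262%. The right fold of VFLP_au animal 1 held 0.0102% cartilage genes, beside 0.00302% to 0.00512% in the other VFLP_au libraries. The left fold of injury_only animal 2 held 0.0812% erythroid and blood genes, beside 0.0159% to 0.0295% in the other injury_only libraries. The part of these libraries in the differences of the lists was not tested.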

How the results depend on the processing

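Between VFLP_au and injury_only, the count of 0 genes stood at 205 by DESeq2, 3 by limma voom, 1 with the 2 groups alone and 0 to 1 when 1 animal was left out, the call being LOC100353731 without VFLP_au animal 3. It remained 0 with the other size factors, no filter, unstranded counts, a batch term (1653 genes at an unadjusted p under 0.05 by edgeR), the batch C fold of injury_only animal 1, and left (4144) or right folds (656) alone. Over Col1 the 0 genes stood at 36 by DESeq2 and 0 to 1 with 1 animal left out; over VFLP_man the 7 stood at 357 by DESeq2 and 0 to 86 with 1 animal left out. Samples with the same replicate number did not deviate together (r = 0.0188, -0.0937 and -0.145), so the numbers do not pair them; with the replicate as a block VFLP_au had 0 genes over injury_only (2075 at an unadjusted p under 0.05 by edgeR) and 0 over VFLP_man. Of 98 named genes, 85 kept their sign under 17 alternatives and 24 passed in DESeq2. With a batch term the sign reversed for PI16 (log2 0.12), C7 (1.05), SDHD (0.33) and HAS2 (0.65). It reversed over left folds for NDUFS7 (-0.29), NDUFS8 (-0.15), ELN (-0.22) and TGFB1 (-0.086), over right folds for SDHD (0.21), COL3A1 (0.13) and HAS2 (1.08), and for ELN with the batch C fold of injury_only animal 1 alone (-0.016). With 1 animal left out, AURKB ran between -0.14 and 1.18, CCNA2 between -0.040 and 1.07, CCNB1 between -0.059 and 1.01 (negative only without VFLP_au animal 2), COL3A1 between -0.73 and 0.0049 and LOX between -0.56 and 0.14 (positive only without VFLP_au animal 3), ELN between -0.25 and 0.37 (negative only without VFLP_au animal 1), TGFB1 between -0.17 and 0.27 and HAS2 between -0.62 and 0.040. The cause was not tested. With 3 animals a group, a difference that failed the threshold is not shown to be absent.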
